A study of Caenorhabditis elegans with 2 samples.

Results

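The subject here is the cbp-1 gene (WBGene00000366, also R10E11.1) of Caenorhabditis elegans with 10 kb on either side, and the chromatin immunoprecipitation peaks of tagged LSY-2 that lie there. The gene is 1 of 19973 protein-coding genes on the nuclear chromosomes. On WBcel235, the assembly called ce11 in the peak files, cbp-1 lies on chromosome III from 9766509 to 9774825 on the plus strand, and the window runs from 9756509 to 9784825. Peaks were assigned to the window by their summit. The locus was chosen by its measured signal, since a very strong peak near it was already known, so its signals and ranks are given as a description and carry no test.

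The material was whole L4 larvae of pooled sex from strain OP240, which carries unc-119(ed3) and the insertion wgIs240, an eGFP-tagged lsy-2. Both samples share this genotype, stage and immunoprecipitation target. They are the 2 biological replicates of a single group, with no second condition. What drives expression of the tagged copy was not given in the sources used here, and whole animals mix all tissues. The lists held 25003 candidates in replicate 1, 24002 in replicate 2 and 22035 from the pooled replicates, of which the 1563 of highest signal formed the optimal list. The authors made that list with a threshold on the irreproducible discovery rate, which sets replicates against each other, but not each of its members ranked high in both replicates. The pooled candidates were deposited as peaks and background, the input for that threshold, so a candidate alone is not taken as a binding site. Signal is the authors' own value per peak, with a separate scale in each list, and depth is unknown.

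CBP-1 is the worm counterpart of the mammalian coactivators CBP and p300. These large proteins are brought to promoters and enhancers by transcription factors and transfer acetyl groups to histone tails, a mark of active chromatin. In C. elegans, cbp-1 is required for cell differentiation in the embryo. LSY-2 is a zinc finger protein of the C2H2 class, first known for its part in the left-right asymmetry of the ASE taste neurons.

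The window held 3 optimal peaks. The strongest lay upstream of cbp-1, the next lay between the divergent genes sqv-3 and vha-1, and the weakest lay at the cbp-1 start itself. Their sequences are shown because these are the only optimal peaks of the window. The stretches shown differ in length, so the short words marked in them are not compared at equal width. Plus-strand reference sequence of WBcel235 from RefSeq is given 5′ to 3′. Capitals mark every match, on either strand, to the 6-base word GAGAGA, to the word ACGCAG or to the word CGTCTC, and to a pair of 9-base words that the first and last of these sequences share. The sequence upstream of cbp-1 runs 100 bases to either side of the summit (chrIII:9765505-9765705). That at the cbp-1 start runs 50 bases to either side of its summit and ends before the first transcribed base (chrIII:9766365-9766465). That between sqv-3 and vha-1 is the whole peak of 212 bases (chrIII:9780728-9780939).
Upstream of cbp-1: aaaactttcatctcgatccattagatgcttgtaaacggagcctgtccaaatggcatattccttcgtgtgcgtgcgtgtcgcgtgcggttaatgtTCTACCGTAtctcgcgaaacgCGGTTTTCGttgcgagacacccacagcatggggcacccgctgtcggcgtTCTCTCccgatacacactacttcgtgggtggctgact
At the cbp-1 start: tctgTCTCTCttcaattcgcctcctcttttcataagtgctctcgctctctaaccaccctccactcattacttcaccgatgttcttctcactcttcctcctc
Between sqv-3 and vha-1: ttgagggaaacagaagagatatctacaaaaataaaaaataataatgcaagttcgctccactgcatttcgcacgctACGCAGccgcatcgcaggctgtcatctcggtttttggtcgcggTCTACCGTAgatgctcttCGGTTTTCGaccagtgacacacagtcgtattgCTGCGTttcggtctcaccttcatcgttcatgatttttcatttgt

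The upstream peak was 1 of the strongest peaks of the experiment. Its pooled signal was 1591, rank 13 of 22035 pooled candidates, compared with a median signal of 89.8 in the optimal list. On chromosome III only 3 of the 301 optimal peaks had a higher signal. It had a signal of 714 in replicate 1 and 866 in replicate 2, ranks 13 and 15 in their own lists. Both replicates placed it among their strongest candidates. All 3 optimal peaks of the window had a candidate in each replicate, as had 99.8% of all optimal peaks. The summits lay at 9765596 in replicate 1, 9765618 in replicate 2 and 9765605 in the pooled list, a spread of 22 bp.

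The peak was also broad, running from 9765156 to 9765937. Its 782 bp were matched or exceeded by 5 of the 1563 optimal peaks, itself included (0.32%), whereas 1250 had the common width of 390 bp. The replicate candidates spanned 539 and 713 bp.

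The upstream summit lay in intergenic sequence, 904 bp before the nearest cbp-1 transcript start. The annotation gives 4 cbp-1 transcripts, and their starts fall within a few bases of each other. They are R10E11.1a.2 at 9766509, R10E11.1b.1 at 9766510, and R10E11.1a.1 and R10E11.1c.1 both at 9766516. No other annotated start of the gene is nearer to the summit. Of the 1563 optimal peaks, 784 (50.2%) lay more than 500 bp from any protein-coding start, and this peak had the highest signal among them. The next of these had 862, and their median was 86.05.

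A pair of short noncoding RNA genes lay just before the peak. R10E11.10 (WBGene00196856, 9764747 to 9765109) is on the minus strand, so the summit lay 496 bp upstream of its start. R10E11.12 (WBGene00200960, 9765005 to 9765148) is on the plus strand, with its start 600 bp and its end 457 bp before the summit. The left edge of the peak came within 7 bp of the end of R10E11.12 and 46 bp of the start of R10E11.10, and its right edge stopped 571 bp short of cbp-1. The peak overlapped no annotated gene. Counting starts of every gene class, the nearest start was that of R10E11.10, and 512 optimal peaks had none within 500 bp. With its summit 496 bp from that start, the upstream peak is not among those 512.

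**Figure D1:**
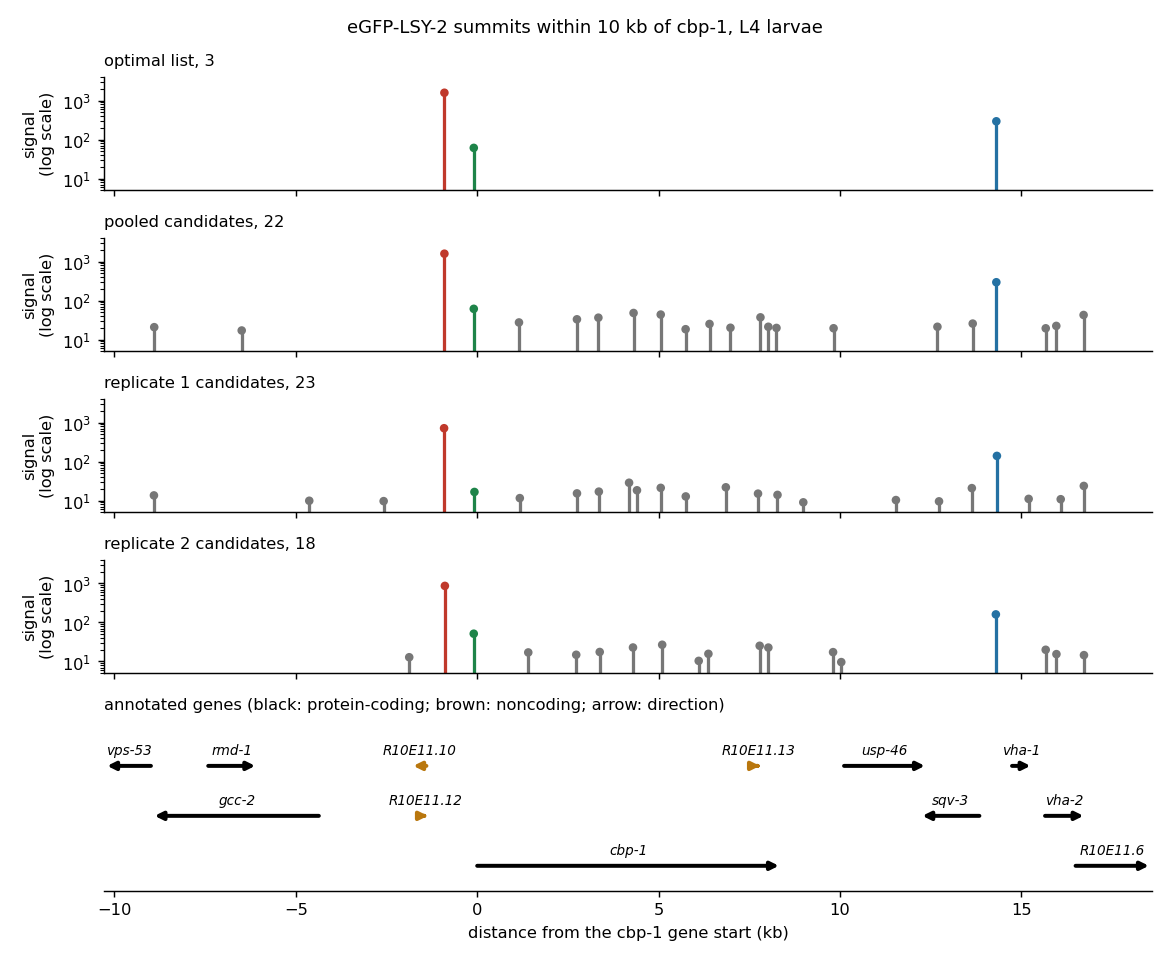
Candidate and optimal summits within 10 kb of cbp-1 in the optimal, pooled, replicate 1 and replicate 2 lists (vertical axis, signal as deposited on a log scale, each list with its own scale) against distance from the cbp-1 gene start in kb, with annotated genes below; vps-53 and R10E11.6 run on beyond the window. Coloured stems are the 3 optimal peaks, upstream of cbp-1 (red, 1591 pooled), at its start (green, 61.4) and between sqv-3 and vha-1 (blue, 295); grey stems are the other candidates, of which 11 lie inside cbp-1 in the pooled list.

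At the cbp-1 start there was a separate and much weaker peak, from 9766220 to 9766609, which reaches into the first exon. Its summit at 9766415 lay 94 bp upstream of the first transcript start. By a summit within 500 bp of a start, cbp-1 counts as bound through this peak alone, as do 4.78% of all protein-coding genes. The pooled signal was 61.4, rank 1506, close to the end of the optimal list. The last optimal peak, rank 1563, had 60.26, and the first candidate outside the list had 60.23.

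The replicates differed at the start peak. Its signal was 16.6 in replicate 1, at rank 6181, against 51.5 in replicate 2, at rank 745. In replicate 1 its summit lay at 9766433 with a deposited −log10 q of 0.617, whereas in replicate 2 it lay at 9766414 with the ceiling value of that list, 3.53. The ratio of replicate 2 to replicate 1 signal was 3.11, compared with a median of 1.17 over the 1560 optimal peaks that had a candidate in both replicates, of which the middle 90% ran from 0.631 to 2.1. Only 16 optimal peaks had a ratio as high, this one included. In replicate 1 alone, 13 of the 1563 optimal peaks had a rank as low or no candidate. With the 1563 strongest candidates of replicate 1 as the list, the start peak is absent.

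The upstream and sqv-3/vha-1 peaks, by contrast, had ratios of 1.21 and 1.16, near the median. The upstream peak was 25.9 times the start peak in the pooled list, 43.1 times in replicate 1 and 16.8 times in replicate 2. The direction is the same in all 3 lists, but the size of the gap rests on the start peak, whose 2 values lie far apart. The summits were 810 bp apart and the peaks were separated by 282 bp. Of 1557 pairs of neighbouring optimal summits on a chromosome, 71 (4.56%) lay as close or closer, against a median spacing of 29729 bp.

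**Figure D2:**
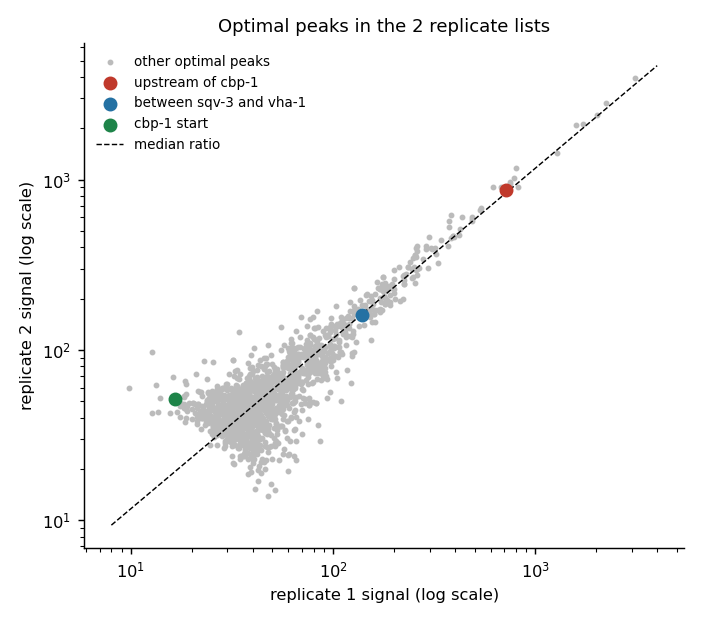
Signal in replicate 2 (vertical axis) against replicate 1 (horizontal axis), both on log scales as deposited, for the 1560 optimal peaks with a candidate in each; the dashed line is the median ratio, 1.17. The upstream (red) and sqv-3/vha-1 (blue) peaks lie near the line, while the cbp-1 start peak (green) lies above it at 16.6 and 51.5.

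The remaining optimal peak of the window lay 14.3 kb downstream of the cbp-1 start, from 9780728 to 9780939. It stands between sqv-3, which encodes a galactosyltransferase of glycosaminoglycan synthesis needed for vulval shape, and vha-1, which encodes a proteolipid subunit of the vacuolar proton pump. Its summit lay 467 bp upstream of the sqv-3 start and 433 bp upstream of the vha-1 start. The pooled signal was 295, rank 134. It was 139 in replicate 1 and 161 in replicate 2, ranks 126 and 135, so the replicates placed it alike. The peak was narrow, and 1422 of the 1563 optimal peaks were as wide or wider. The upstream peak exceeded it 5.39-fold in the pooled list, 5.12-fold in replicate 1 and 5.38-fold in replicate 2, ratios that differed by little between lists.

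**Figure D3:**
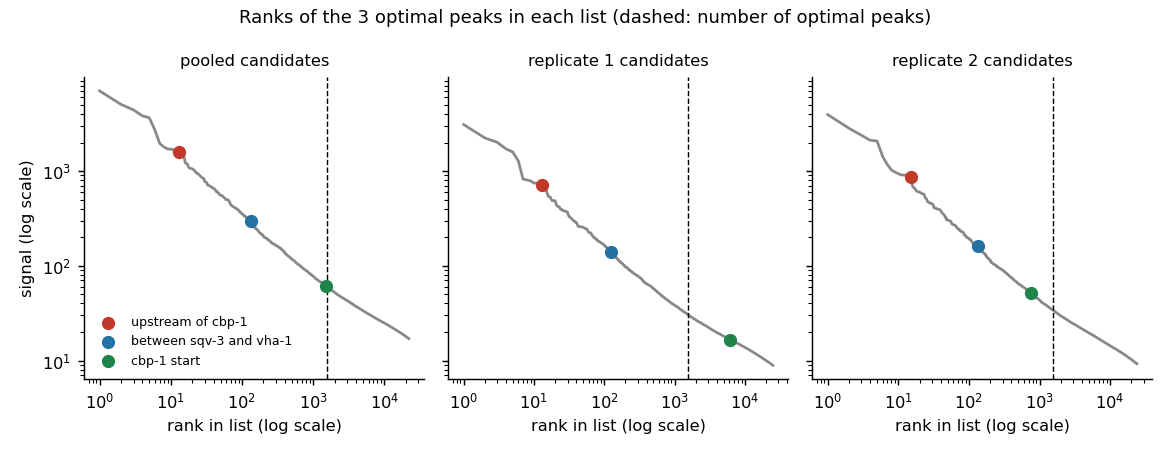
Signal (vertical axis, log scale, as deposited) against rank (horizontal axis, log scale) in the pooled, replicate 1 and replicate 2 candidate lists; grey lines are whole lists, points are the 3 optimal peaks of the cbp-1 window, and dashed lines stand at rank 1563. The upstream peak (red) ranks 13, 13 and 15 and the sqv-3/vha-1 peak (blue) 134, 126 and 135, whereas the start peak (green) ranks 1506, 6181 and 745.

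Having 3 optimal peaks within 10 kb was infrequent. At least 1 optimal summit lay in the gene or within 10 kb for 26.3% of protein-coding genes, and at least 3 for 499 genes (2.5%). A signal of 1591 or more lay in that window for 77 genes (0.386%), a number that counts each neighbour of a strong peak. These shares were not adjusted for gene length, and because the locus was chosen for its peak nothing is read from them.

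No optimal summit lay inside the cbp-1 gene, as was the case for all but 1.83% of protein-coding genes. Weaker candidates did lie there. The pooled list had 11 in the 8.317 kb of the gene, 10 were found in replicate 1 and 9 in replicate 2. At least 11 lay inside 109 protein-coding genes (0.546%). The median length of a protein-coding gene was 2.03 kb, and gene length was not taken into account. Of the 11, 8 had their summit in coding exons and 3 in the untranslated part of the last exon. The pooled signals ran between 18.4 and 48.07, at best rank 2351, all below the optimal list. Their −log10 q ran from 0.0481 to 2.31, compared with 3.53 for every optimal peak. Because the pooled list includes background regions, these candidates are not read as binding inside the gene.

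The strongest of these lay in coding exon 8. Its summit was at 9770820, and the signal was 48.07 in the pooled list with a −log10 q of 2.31. The overlapping candidates ranked 1759 in replicate 1 (signal 28.6) and 3536 in replicate 2 (22.8). The next, at 9771569 in the same exon, had a pooled signal of 43.8 and ranks of 3399 and 2466. Others in exon 8 were at 9769850 (36.4) and 9772255 (18.4). Single candidates had their summit in exons 3, 7, 9 and 11.

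The noncoding gene R10E11.13 (WBGene00220040, 9774222 to 9774302) lies within the last exon of cbp-1 on the same strand. A pooled candidate with a signal of 37.2, rank 4025, had its summit 96 bp after the start of R10E11.13. It matched a candidate of rank 8055 in replicate 1 and rank 2787 in replicate 2. The other 2 untranslated-exon candidates ranked 14153 and 16374.

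Of the candidates in the other exons of cbp-1, that in exon 7, at 9769259, had a pooled signal of 33.1 and ranked 7727 in replicate 1 and 9231 in replicate 2. That in exon 3, at 9767661, had a pooled signal of 27.5. It overlapped a candidate of rank 14960 in replicate 1 and one of rank 6807 in replicate 2, whose summit lay in an intron. The exon 9 candidate (25.1) was matched in replicate 2 only, at rank 8136, whereas the exon 11 candidate (20.1) was matched in replicate 1 only, at rank 3180.

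Over the whole window there were 22 pooled candidates, 23 in replicate 1 and 18 in replicate 2. The pooled density was 7.77 per 10 kb, compared with 2.2 per 10 kb over the genome. Both densities count background regions deposited with the peaks, and −log10 q in the window ran down to 0.0197. They are therefore not densities of binding sites. A count of 22 or more was reached by 83 protein-coding genes (0.416%), and the median was 4. Of the 22, 14 were overlapped by a candidate in both replicates, 4 in replicate 1 only, 3 in replicate 2 only and 1 in neither. Neighbouring pooled candidates can share an overlapping replicate candidate. The strongest peak held 64.5% of the summed pooled signal of the window.

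**Figure D4:**
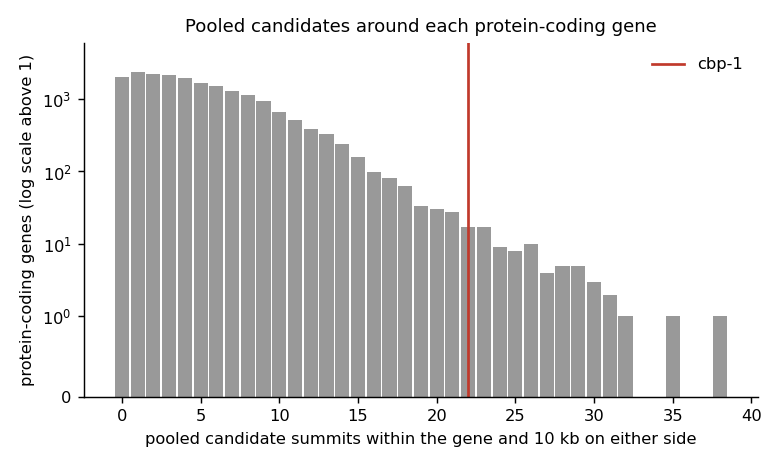
Number of protein-coding genes (vertical axis, log scale above 1) by the number of pooled candidate summits within the gene and 10 kb on either side (horizontal axis). The red line marks cbp-1 with 22, a count reached or exceeded by 83 of 19973 genes. Pooled candidates include regions deposited as background.

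The other neighbours had weak candidates only. On the left of cbp-1 are gcc-2, which encodes a golgin, rmd-1, which encodes a regulator of microtubule dynamics, and vps-53, which encodes a subunit of a vesicle tethering complex. Within 500 bp of a start there, vps-53 had a pooled candidate 91 bp upstream (20.8, rank 14828) with a match in replicate 1 but not in replicate 2. The rmd-1 candidate, 383 bp after the start of transcript T05G5.7b.1, ranked 21832 with no match in either replicate. In the pooled list gcc-2 had none within 500 bp of its start, although replicate 1 had a candidate 264 bp inside at rank 20565.

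On the right, the deubiquitinase gene usp-46 had a pooled candidate 289 bp upstream of its start, rank 17041, matched in replicate 2 only. A candidate 184 bp inside sqv-3 ranked 9194 and was matched in replicate 1 only, at rank 3512. The second proteolipid gene, vha-2, had a pooled candidate 19 bp after its start at rank 17142, matched in replicate 2 only. A further vha-2 candidate 310 bp after the start ranked 12630 and was matched in both replicates, and a second sqv-3 candidate, 1157 bp inside the gene, ranked 14164 with a match in replicate 1 only. R10E11.6, whose role is not described here, had the strongest of them. Its summit lay 98 bp upstream of the start of transcript R10E11.6a.1 and 221 bp after that of R10E11.6a.2. The pooled signal was 42.7, rank 3033, with 23.7 in replicate 1 (rank 2666) and 14.5 in replicate 2 (rank 9710). None of these genes besides sqv-3 and vha-1 had an optimal summit within 500 bp of a start.

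Some replicate candidates had no counterpart in the pooled list of the window. In replicate 1 these were in an intron of usp-46 (rank 19022), in the first exon of vha-1 (rank 16479) and in intergenic sequence at 9763930 (rank 21411) and 9775499 (rank 24503), with the gcc-2 candidate named above. In replicate 2 a candidate at 9764635 (signal 12.8, rank 12776) lay beside R10E11.10 and R10E11.12, where replicate 1 had none. All had signals far below the 714 and 866 of the upstream peak in these lists.

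By signal, the peaks nearest to the upstream peak all lay at promoters. The 3 just above it were those of mig-5, a Dishevelled gene, at 1704, Y55F3AR.2 at 1675 and cox-5B, a cytochrome c oxidase gene, at 1612. The 3 just below were those of Y25C1A.8 at 1577, ekl-4 at 1532 and the DREAM complex gene lin-9 at 1219. Their order differed between replicates. In replicate 2 the Y25C1A.8 and ekl-4 peaks ranked 12 and 13, above the upstream peak at 15, whereas in replicate 1 they ranked 14 and 15, below it at 13. The lin-9 peak ranked 16 in both. Their summits lay between 17 and 188 bp upstream of the start, compared with 904 bp for cbp-1.

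The upstream peak was also set beside the 5 strongest other optimal peaks more than 500 bp from a protein-coding start. These were picked by signal, and not all lay upstream of the nearest start or between genes. The first, 586 bp upstream of the ubiquitin ligase gene eel-1, had a signal of 862. The rest were nearest to W02H3.3 (710), C34C12.1 (698), F20B6.9 (588) and nspc-17 (566), at distances between 724 and 3966 bp. The cbp-1 upstream peak had 1.85 times the signal of the eel-1 peak in the pooled list, 1.82 times in replicate 1 and 1.85 times in replicate 2.

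**Figure D5:**
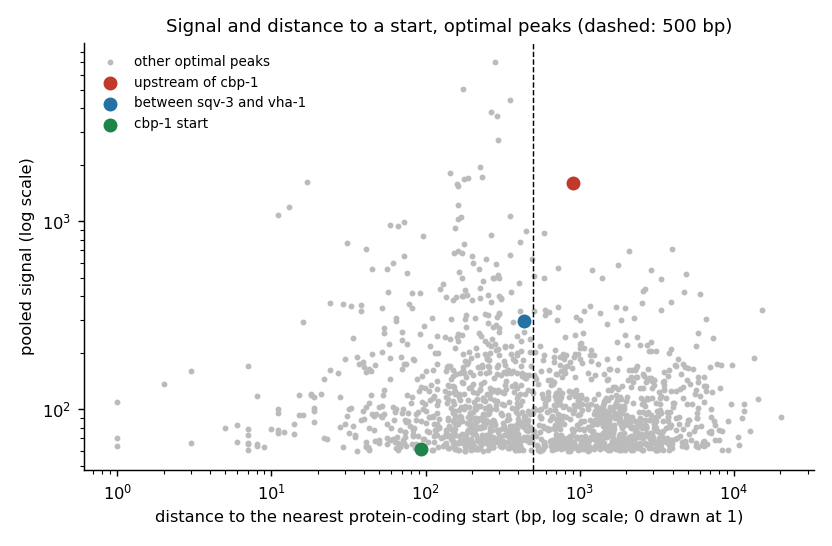
Pooled signal (vertical axis, log scale) against distance from the summit to the nearest protein-coding transcript start (horizontal axis, bp, log scale) for the 1563 optimal peaks; the dashed line is 500 bp. The upstream peak (red, 904 bp, signal 1591) is the highest point to the right of the line; the start peak is green and the sqv-3/vha-1 peak blue.

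The 3 short words, chosen with earlier results of these data known, were searched on both strands. Their shares outside the optimal peaks are not given here. Within 50 bp of its summit the upstream peak had no match to any of them. At that width GAGAGA was held by 29.8% of optimal peaks, while ACGCAG was held by 18.7% and CGTCTC by 20.8%. At least 1 of the 3 was held by 47%, and all 3 by 4.8%. Within 100 bp the upstream peak had a single match to GAGAGA, 66.5 bp right of the summit, and none to the others. At that width the optimal peaks held GAGAGA in 47.5%, ACGCAG in 27.6% and CGTCTC in 31.4%. Across its whole 782 bp there were 3 matches to GAGAGA and 1 to CGTCTC.

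The start peak had 1 match to GAGAGA within 50 bp, lying 43.5 bp left of the summit, and 3 in its 390 bp. The sqv-3/vha-1 peak had an ACGCAG match 15.5 bp left of the summit and a second 77.5 bp to the right, on the other strand. The GC content within 50 bp of the summit was 56.4% upstream of cbp-1, 55.4% between sqv-3 and vha-1 and 47.5% at the cbp-1 start, compared with a median of 47.5% over optimal peaks.

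The upstream and sqv-3/vha-1 windows shared 2 exact words of 9 bases, which are the 9-base capitals in the sequences above. The search covered words of at least 9 bases on either strand within 100 bp of the 3 summits, and these words were picked out after the sequences were seen. TCTACCGTA was centred 2 bp left of the upstream summit and 29 bp right of the sqv-3/vha-1 summit. CGGTTTTCG followed it on the same strand in both, with 21 bp from start to start in the upstream peak and 18 bp in the sqv-3/vha-1 peak. The start window shared no word of that length with either.

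Among optimal peaks, TCTACCGTA lay within 100 bp of the summit in 24 of 1563 (1.54%), compared with 72 of 20472 other pooled candidates (0.352%). CGGTTTTCG lay in 6 optimal peaks (0.384%), compared with 47 (0.23%). Both words occurred together in 3 optimal peaks (0.192%), 2 of which are the peaks of this locus. The words were picked from these 2 peaks, so both are counted in each optimal share by construction. The shares are a description, and no test was made.

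Other genes of histone acetylation and its reading were described from lists of acetyltransferase, deacetylase and bromodomain genes. Counting a summit within 500 bp of a start, 3 of 11 acetyltransferase genes, 0 of 12 deacetylase genes and 3 of 10 bromodomain genes had an optimal peak, 6 of 33 in all, beside the 4.78% of all protein-coding genes. The chosen gene, cbp-1, is itself counted among the 3 acetyltransferase genes and among the 6, through its weak start peak. A further listed symbol, flt-1, was not matched in the annotation. Among the 781 strongest optimal peaks the count was 2 of 33, beside 2.76% of all protein-coding genes, and cbp-1 was then not among them. The lists were small, and no test was made.

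The acetyltransferase genes besides cbp-1 were hat-1, which is named for histone acetyltransferase activity, with a summit 237 bp upstream (112, rank 546), and trr-1, which encodes a TRRAP-like subunit of acetyltransferase complexes, 226 bp upstream (74.7, rank 1053). The genes cbp-2 and cbp-3, named after cbp-1, overlap each other on chromosome III, and the optimal peak nearest to both (61.9, rank 1494) was 7363 and 15996 bp from their starts. For elpc-3 the nearest optimal summit was 9716 bp away, for lsy-12, a MYST acetyltransferase gene, 63713 bp, and for pcaf-1 131716 bp.

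The bromodomain genes with a peak at a start were bet-2 (110, rank 557), nurf-1 (65.9, rank 1335), which encodes a chromatin remodelling subunit, and lin-49 (81.6, rank 918). The nurf-1 peak also differed between replicates, with rank 808 in replicate 1 and rank 6822 in replicate 2, the opposite order to that at the cbp-1 start. Peaks at a distance like that of the upstream cbp-1 peak lay 860 bp before pbrm-1 (178, rank 256) and 1264 bp before bet-1 (152, rank 348). All 5 values were above the 61.4 of the cbp-1 start peak. All were below the 1591 upstream of cbp-1, but the locus was chosen for that peak, so nothing is read from this.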

How the data were processed

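ChIP-seq peak lists without header lines were used for 2 biological replicates of 1 group. The signal of each peak (column 7) was deposited by the authors, as was the −log10 q value (column 9). The p column was not filled. Per the deposited text listings, the optimal list derives from the pooled and replicate candidate lists. No source used here gave the aligner, peak caller or thresholds, and depth is unknown. The ce10 lists were not used, since no coordinates were converted.

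Peaks were ranked by signal, and the 1563 first-ranked pooled candidates were exactly the optimal list. The annotation was Ensembl release 115, and reference bases were read from RefSeq's WBcel235. Coordinates are 1-based. Replicate candidates were matched by an overlap of at least 1 bp, taking the strongest. The procedures ran in Python 3.11.15 with pandas 2.3.3 and NumPy 2.4.6 and were tested on simulated data.

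Named genes were those overlapping the window and those at the 3 peaks above and 3 below in signal. Also named were those of the 5 strongest other peaks away from protein-coding starts, and listed genes with a peak. Beyond this rule, other acetylation genes, and lin-53, eef-2 and frg-1 in the closing section, were named after their values were seen. The locus, words and lists were chosen with earlier results of these data known.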

Additional observations from a re-analysis of the deposited data

How the results depend on the processing

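Of 27 alternatives to the values above, 21 left counts within 1.5 times, and ranks and distances within the spread between replicates. The other 6 were counted as moved. The strongest peak ranked 15 without replicate 1, which is replicate 2's own rank. That is an end of the spread between replicates and no departure from it. With 20 kb on either side, pooled candidates numbered 36. Using starts of any gene class, the strongest summit lay 496 bp from a start. With summits within 100 bp as the match, 9 pooled candidates were found in both replicates. Among the 781 strongest peaks, 2 acetylation genes were bound. Within 100 bp, 1 word match lay at the strongest summit. Leaving out 1 replicate gave 2 to 3 optimal peaks, 18 to 23 candidates, a rank of 13 to 15, a distance of -913 to -891 bp and 5 to 7 acetylation genes. For rank and distance these are the remaining replicate's own values. The same values set the spread between replicates, so comparing them with that spread is no check. No paired analysis was possible because there was a single group. Depth is unknown, and counts of candidates depend on how many weak regions were deposited.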

Other observations

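The word TCTACCGTA, found at the summit upstream of cbp-1, was unevenly spread over the ranked optimal list. It lay in 10 of the 100 strongest optimal peaks and in 14 of the other 1463 (0.957%). The median signal of the 24 peaks that hold it was 297, compared with 89.8 for all optimal peaks. In 16 of the 24 the word was centred within 25 bp of the summit. Besides cbp-1, the peaks of highest signal with it were nearest to the synMuv gene lin-53, to ekl-4, to the elongation factor gene eef-2 and to frg-1, with signals of 1713, 1532, 1085 and 1032. The third optimal peak that holds both 9-base words within 100 bp was that of lin-53, where they lay on opposite strands. The word was picked from these peaks, so its shares are a description and no test was made.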
